A study of Mus musculus with 2 samples.

Results

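Chemokine ligand genes and chemokine receptor genes were followed in cells of embryonic mouse skin sorted as tdTomato+, to see which cell classes held their transcripts in each library. The genes were chosen by name, with earlier results of these data known: *Ccl* and *Cxcl* symbols, *Ccr* and *Cxcr* symbols, *Cx3cl1*, *Cx3cr1*, the atypical receptor genes *Ackr*, *Xcl1* and *Xcr1*. Of 60 such symbols among the 27935 of the gene list, 48 had at least 1 unique molecular identifier (UMI), which is the count of 1 captured transcript. These 48 genes, 28 ligands and 20 receptors, stand against 17813 genes with a UMI in all. The 12 symbols with no UMI were *Cxcr1*, *Cxcr5*, *Ccl19*, *Ccl21b*, *Ccl21c*, *Ccl22*, *Ccl26*, *Ccl27b*, *Ccl28*, *Cxcl3*, *Cxcl13* and *Cxcl15*.

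The study asked what the histone chaperone HIRA does in the melanocyte lineage. It crossed a Cre driven by the tyrosinase promoter (TyrCre) to a Cre-dependent tdTomato reporter at the Rosa26 locus, and both groups carry the Cre and the reporter. The HIRA WT group has wild-type *Hira* alleles and the HIRA KO group has floxed ones, which the Cre deletes in the cells where it acts. This promoter is also active outside melanocytes, and the sort was for tdTomato, not for a melanocyte marker. The paper reports that most, but not all, of the purified cells were tdTomato+. Embryos were taken at E15.5 on a mixed background close to C57BL/6J, the trunk skin was digested with dispase, and live tdTomato+ cells were loaded on the 10x Chromium platform. Each genotype is 1 library, so the values have no replicates and no test between genotypes is possible. The HIRA WT library held 1546 barcodes with 7073939 UMIs, and the HIRA KO library held 846 barcodes with 5049514 UMIs. After filtering, 1540 and 828 cells remained, with a median of 3967.5 and 5204.5 UMIs per cell, and 0 barcodes occurred in both libraries.

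Chemokines are small secreted proteins that guide cells along a gradient, and their names follow the spacing of the first cysteines of the protein. Most act through receptors coupled to inhibitory G proteins on the cell that moves, while the atypical receptors bind the ligand without that signal and remove it. In skin, chemokines bring monocytes and other leukocytes out of the blood, lead dendritic cells towards lymph vessels and help to place precursor cells, among them those of the neural crest.

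The cells fell into 21 clusters, of which 20 were named after 12 classes by their marker genes. The names end in "-like" because only markers carry them. HIRA WT and HIRA KO held 536 and 139 melanoblast-like, 446 and 254 glial-like, 217 and 253 mesenchymal-like, 96 and 18 macrophage-like, and 50 and 18 monocyte or dendritic-like cells. There were also 92 and 3 mast cell-like, 12 and 81 keratinocyte-like, 43 and 8 adipocyte-like, 21 and 8 endothelial-like and 7 and 7 granulocyte-like cells. The rest were 5 and 19 erythroid-like cells, 3 and 5 pericyte-like cells, and 12 and 15 cells of an unnamed cluster led by *Ebf1*, *Stmn2* and *Hs3st6*. All 12 macrophage markers on the list were raised in the macrophage-like cluster, and 8 of 12 monocyte or dendritic markers in the other main leukocyte cluster. In that second cluster 6 of 12 macrophage markers were raised as well.

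Several features of the libraries move with genotype and stand beside every ratio given here. *Xist*, the RNA that coats the inactive X chromosome, had 16822 UMIs in HIRA WT and 23 in HIRA KO, while the Y-linked *Ddx3y* had 1 and 236, so the sexes of the libraries differ. Genotype, sex and library cannot be told apart. *Hira* itself had 82 and 50 UMIs, at 11.6 and 10.01 CPM over all kept cells. In melanoblast-like cells it had 35 and 3 UMIs, at 13.8 and 3.53 CPM. It was also lower in HIRA KO in glial-like cells, at 11.04 and 7.53 CPM from 18 and 9 UMIs. In keratinocyte-like cells it was at 36.1 and 18.4 CPM, from 3 UMIs in 12 cells and 14 UMIs in 81 cells. *Hira* was higher in HIRA KO in mesenchymal-like cells, at 7.46 and 10.8 CPM from 8 and 16 UMIs. Macrophage-like cells had 8.47 and 12.7 CPM from 5 and 2 UMIs. Monocyte or dendritic-like cells had 4.40 and 8.06 CPM from 1 and 1 UMIs. The deletion was not checked further, because 3′ counts need not cover the deleted part. UMIs of the tdTomato reporter were in only 3.38% of HIRA WT and 8.21% of HIRA KO cells. Macrophage-like cells had them in 5 of 96 and 2 of 18, and mast cell-like cells of HIRA WT in 0 of 92. Cre UMIs were in 0 macrophage-like and 0 monocyte or dendritic-like cells, but also in only 3 of 536 and 2 of 139 melanoblast-like cells. Whether the cells of a class had expressed the Cre was not tested. RNA of other classes also differed between the libraries. In macrophage-like cells the 10 mesenchymal markers, led by *Col1a2*, summed to 115 UMIs per 1000000 UMIs of the class (CPM) in HIRA WT, with *Pdgfra* at 0, and to 1865 CPM in HIRA KO, with none at 0. The erythroid markers, led by *Hbb-bt* in HIRA WT and *Hbb-bs* in HIRA KO, summed to 215 and 1281 CPM in the same cells, with *Slc4a1* and *Car2* among those at 0 in both and *Alas2* at 0 in HIRA WT. The macrophage gene *Pf4* ran the other way, at 31.9 and 10.04 CPM in glial-like, 41.1 and 12.1 CPM in mesenchymal-like and 31.9 and 16.5 CPM in melanoblast-like cells. The part of such RNA in the ratios was not tested.

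All 48 genes together gave 8525 UMIs in the kept cells, 0.0707% of the total, with 7634 from ligands and 891 from receptors. The 26 genes with at least 20 UMIs, 20 ligands and 6 receptors, are described by their leading class, which is the class with the highest mean CPM of both libraries among classes with at least 10 cells and 10 UMIs of the gene. The leading class was a leukocyte class for 16 of the 26, and the share among all genes is not given here. Macrophage-like cells led for 7 ligands and 1 receptor, and monocyte or dendritic-like cells for 4 ligands and 4 receptors. For *Ccr1* and *Cxcr4* this rests on the limit of 10 UMIs, since granulocyte-like cells had a higher mean, from 4 and 3 UMIs of *Ccr1* (257 and 64.2 CPM) and 2 and 2 of *Cxcr4* (129 and 42.8 CPM). Glial-like, mesenchymal-like and adipocyte-like cells each led for 2 ligands, and keratinocyte-like, endothelial-like and melanoblast-like cells for 1 each. The last receptor, *Ackr3*, was led by mesenchymal-like cells, again by the limits, since endothelial-like cells had a higher mean from 1 UMI. So it was for *Cxcl16*, with 3 UMIs in macrophage-like cells, *Ccl27a*, with 4 in the unnamed cluster, and *Ccl11* and *Cxcl1*, with 7 and 1 in pericyte-like cells. Taken alone, the libraries named the same leading class for 19 of 26 genes, again without a share for all genes to set beside it. The other 7 were *Ccl27a*, *Cxcl9*, *Ccl25*, *Ccr1*, *Cxcl16*, *Ccl11* and *Ccl3*.

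**Figure D1:**
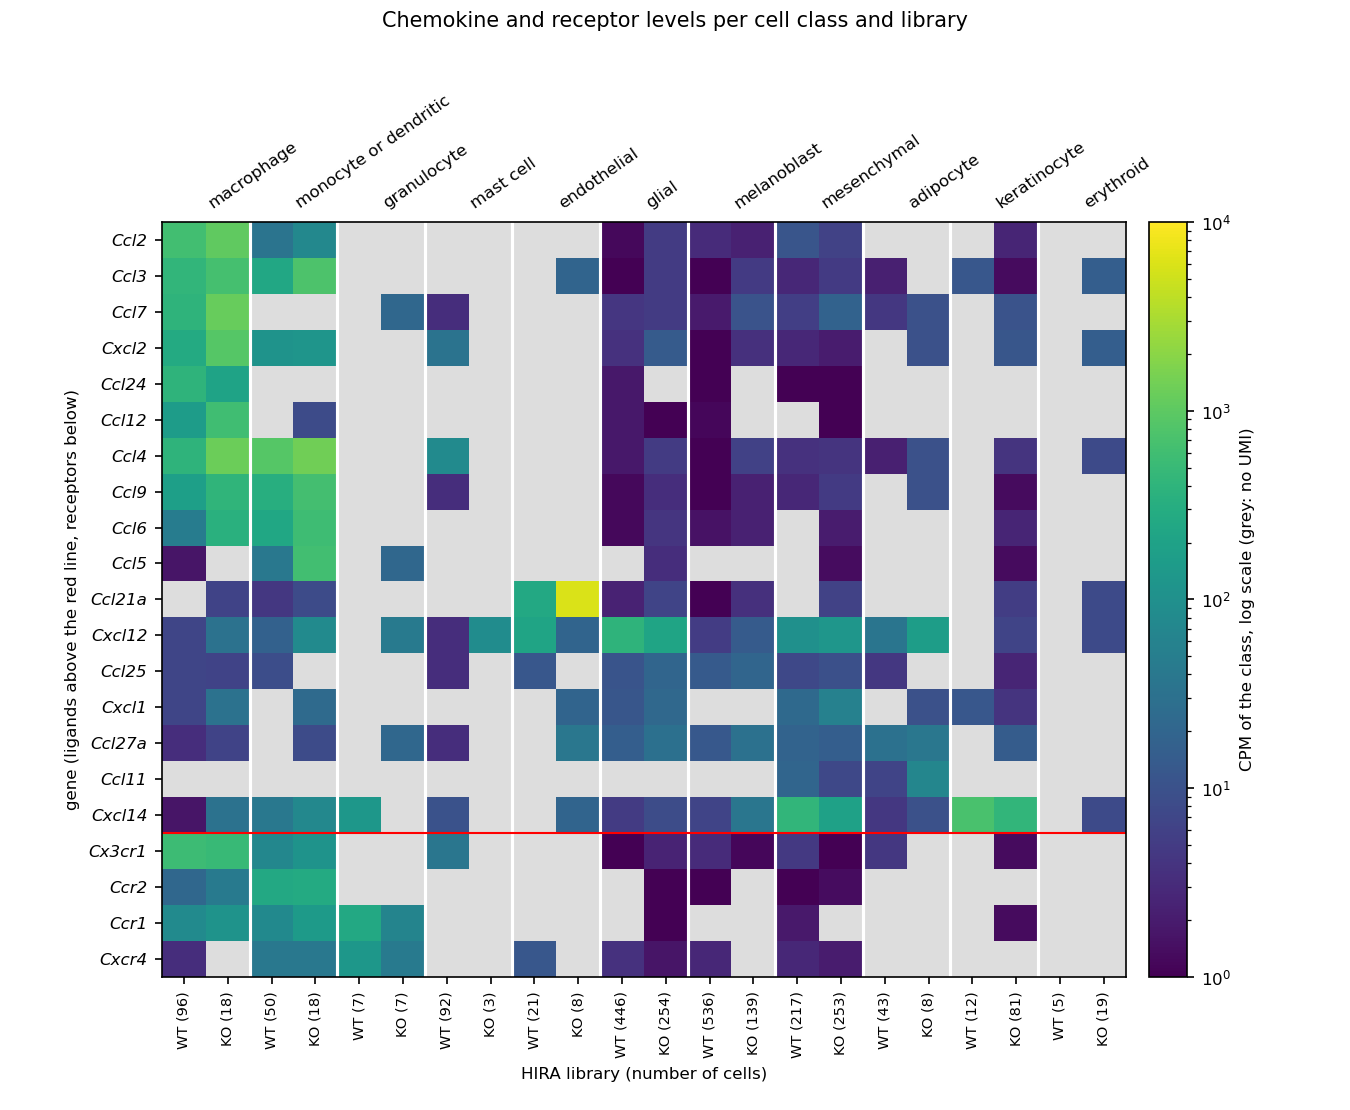
Level of the 21 genes with at least 40 UMIs in 11 named classes, with HIRA WT and HIRA KO side by side, as CPM of the class on a log colour scale. Rows are genes with ligands above the red line and receptors below, grey means no UMI, values under 1 take the darkest colour, numbers in brackets are cells, and the pericyte-like class and the unnamed cluster are not drawn; the leukocyte classes on the left hold most *Ccl* ligands, while *Cxcl12* is high in glial-like and mesenchymal-like cells and *Cxcl14* in mesenchymal-like and keratinocyte-like cells.

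Macrophage-like cells, 96 of 1540 cells in HIRA WT, held 43.9% of all ligand UMIs of that library, and the 18 macrophage-like cells of HIRA KO held 29.5%. The ligand sum was 2974 CPM in HIRA WT (95% interval 2836 to 3116) and 6786 CPM in HIRA KO (6386 to 7206). Melanoblast-like cells, the main target of the Cre, had ligand sums of only 50.8 and 138 CPM. All intervals here cover counting error only.

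The monocyte-attracting ligands *Ccl2*, *Ccl7* and *Ccl12*, which all bind the receptor CCR2, were led by macrophage-like cells. *Ccl2* was at 625 CPM in HIRA WT (563 to 692) and at 1072 CPM in HIRA KO (916 to 1246), with a UMI in 63.5% and 83.3% of cells. *Ccl7* was at 403 and 1186 CPM, and *Ccl12* at 163 and 596 CPM. Macrophage-like cells held 90.1%, 85.3% and 95.5% of the UMIs of the 3 genes. In melanoblast-like cells, which should lack these genes, the highest share for any ligand led by a leukocyte class was 1.49% in HIRA WT and 6.47% in HIRA KO, both for genes of this group (*Ccl2* and *Ccl7*), at median depths of 4335 and 5654 UMIs against 5571.5 and 8125 in macrophage-like cells. After thinning each cell to 2000 UMIs, *Ccl2* was found in 49.5% and 61.1% of macrophage-like cells, against 0.571% and 0 of melanoblast-like cells. For *Ccl7* it was 28.4% and 33.3% against 0.571% and 1.44%, and for *Ccl12* 15.8% and 27.8% against 0.381% and 0. The thinned shares of these genes thus stood far above those of melanoblast-like cells.

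*Ccl3* and *Ccl4*, inflammatory chemokines that draw monocytes and T cells, were shared between both main leukocyte classes. *Ccl3* reached 430.1 and 659.6 CPM in macrophage-like cells of HIRA WT and HIRA KO, and 251 and 766 CPM in monocyte or dendritic-like cells. Its leading class therefore differed between the libraries. *Ccl4* reached 396 and 1281 CPM in macrophage-like cells and 876 and 1338 CPM in monocyte or dendritic-like cells. Among macrophage-like cells a *Ccl4* UMI was found in 27 of 96 in HIRA WT and in 15 of 18 in HIRA KO, and after thinning in 20% and 66.7% of cells. Of the named genes, *Ccl4* had the widest gap between the libraries in the thinned share of macrophage-like cells. In HIRA WT, 5 of 92 mast cell-like cells also held 24 *Ccl4* UMIs, 17 of them in 1 cell.

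Other macrophage-led ligands went different ways. *Cxcl2*, a neutrophil attractant that acts through CXCR2, was at 276 CPM in HIRA WT and 869 CPM in HIRA KO. *Ccl24*, an eosinophil attractant that binds CCR3, was at 403 CPM (353 to 458) and 209 CPM (144 to 294), and macrophage-like cells held 97.5% of its UMIs. It is the only ligand led by macrophage-like cells with a lower value in HIRA KO. *Cxcl10*, an interferon-induced attractant of T cells, had 10 UMIs in 2 cells of HIRA WT and 5 UMIs in 2 cells of HIRA KO.

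Monocyte or dendritic-like cells led for *Ccl9* and *Ccl6*, rodent ligands of CCR1. *Ccl9* was at 317 CPM in HIRA WT (248 to 399) and 637 CPM in HIRA KO (504 to 794), and *Ccl6* at 238 CPM (179 to 310) and 572 CPM (447 to 722). Macrophage-like cells had less in each library, 183 and 412 CPM of *Ccl9* and 47.4 and 342 CPM of *Ccl6*. In HIRA WT, 15 of 22 monocyte or dendritic-like cells with *Ccl6* also had *Ccl9*. This cluster carried granulocyte markers, led by *S100a8*, at 2695 CPM in HIRA WT and 7126.5 CPM in HIRA KO, with *Ltf* and *Retnlg* at 0 in both and *Ngp* and *Camp* at 0 in HIRA WT, and their part in the levels was not tested.

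*Ccl5*, a chemokine made by T cells and natural killer cells, came from almost no cells. Its 9 UMIs in monocyte or dendritic-like cells of HIRA WT were in 2 cells, and its 77 UMIs in HIRA KO were in a single cell. That cell had 3 of 8 lymphoid markers with 20 UMIs in all and 4 of 12 monocyte or dendritic markers with 9. In HIRA WT, 3 cells of the cluster had at least 3 lymphoid markers, and they held 7 of the 9 *Ccl5* UMIs and all 6 of *Xcl1*, which draws cross-presenting dendritic cells. No cluster of lymphoid cells formed, and these few cells were looked at after their values had been seen.

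For the genotype ratio, a gene needed at least 20 UMIs in a class with at least 10 cells per library, and a 2-fold difference either way (log2 ratio of 1) was the mark for counting. In macrophage-like cells 7 of 12 members passed it, against 14.9% of the 3926 genes compared, and all 7 were higher in HIRA KO: *Ccl6*, *Ccl12*, *Ccl4*, *Cxcl2*, *Ccl7*, *Ccl9* and *Ccr2*. Their log2 ratios were largest for *Ccl6* at 2.85 (2.17 to 3.57) and *Ccl12* at 1.87 (1.45 to 2.30). Those of *Ccl4*, *Cxcl2* and *Ccl7* were 1.69 (1.41 to 1.97), 1.65 (1.32 to 1.99) and 1.56 (1.27 to 1.84). *Ccl2* and *Ccl3* were also higher, but by less than 2-fold, at 0.78 (0.51 to 1.04) and 0.62 (0.27 to 0.95). The members' median was 1.09, against -0.05 for all genes compared. In monocyte or dendritic-like cells 4 of 9 members passed, against 11.2% of 2105 genes, again all higher in HIRA KO: *Ccl5* at 3.97 (2.97 to 5.15), *Ccl3* at 1.61 (1.12 to 2.11), *Ccl6* at 1.27 (0.74 to 1.81) and *Ccl9* at 1.01 (0.53 to 1.49). The 9 had a median of 0.95, against -0.02. With all cells weighted alike, *Ccl3*, *Ccl6* and *Ccl9* fell short of 2-fold at 0.94, 0.93 and 0.72, which left *Ccl5* with its single cell, and thinning took *Ccl6* and *Ccl9* to 0.67 and 0.58. *Ccl4* was at 0.61 (0.30 to 0.92) there, but at -0.55 when all cells were weighted alike, and 86 of its 199 UMIs in HIRA WT were in 1 cell with 1813 UMIs of all genes.

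**Figure D2:**
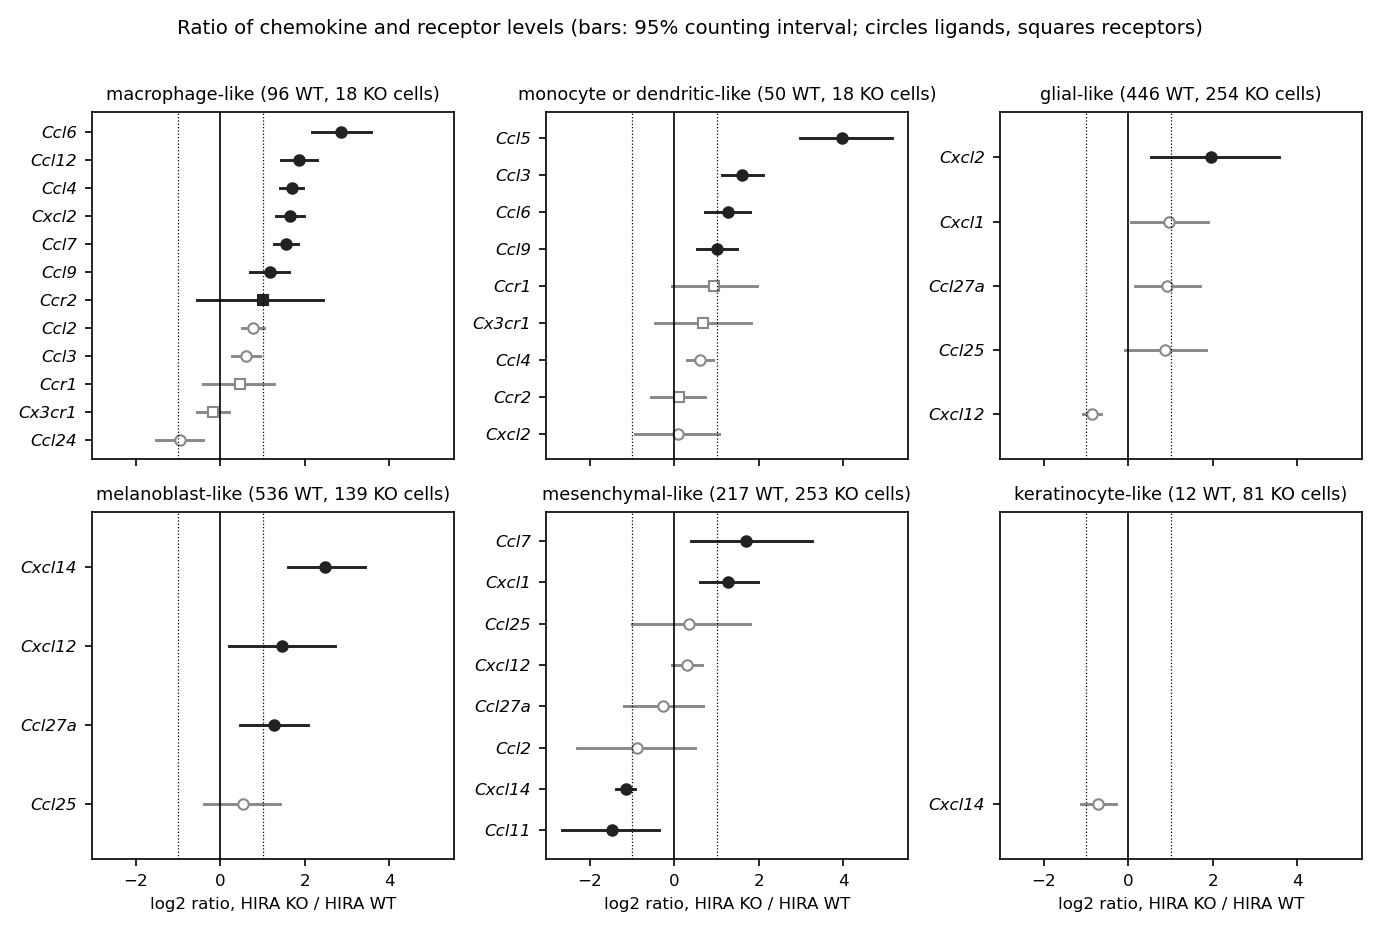
Log2 ratio of HIRA KO to HIRA WT for each gene with at least 20 UMIs in a class, in the 6 classes with at least 10 cells per library. Circles are ligands, squares are receptors, bars are 95% counting intervals, and filled symbols are past the dotted 2-fold lines; in macrophage-like cells all 7 filled symbols lie to the right, from *Ccr2* to *Ccl6*.

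The macrophage-like class of HIRA KO is small, and few cells held many of these UMIs. Of its 1070 ligand UMIs, 298 were in 1 cell and 633 in 3 of 18 cells, which is 59.2%. Relative to class size the concentration was similar in the libraries, as 50% of the ligand UMIs lay in 3 of 18 cells in HIRA KO and in 17 of 96 cells in HIRA WT. For 8 ligands, *Ccl2*, *Ccl3*, *Ccl4*, *Ccl6*, *Ccl7*, *Ccl9*, *Ccl12* and *Cxcl2*, the cell with the most UMIs was a different one each time in HIRA WT. In HIRA KO only 2 cells took all 8 places, and 1 of them led for 5: *Ccl2*, *Ccl3*, *Ccl4*, *Ccl12* and *Cxcl2*. Both of these cells had 11 of 12 macrophage markers and none of the lymphoid markers. With all cells weighted alike, the median cell had 2161 CPM of ligands in HIRA WT and 3058 CPM in HIRA KO. The quartiles were 1150.2 and 4283 CPM against 1862 and 7279 CPM, so the groups of cells overlapped widely.

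Leaving out the top cell of each gene in each library moved the ratios most where 1 cell dominated. For *Ccl6* in macrophage-like cells, where 43 of 54 UMIs of HIRA KO were in 1 cell, the log2 ratio went from 2.85 to 0.91. For *Ccl9* it went to 0.53, and for *Ccr2* from 1.01 (-0.55 to 2.44) to 0.32. For *Ccl3* it turned from 0.62 to -0.18. *Ccl12*, *Cxcl2*, *Ccl4* and *Ccl7* kept 1.63, 1.62, 1.15 and 1.09. For *Ccl5* no value was left, because its only cell of HIRA KO was taken out.

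**Figure D3:**
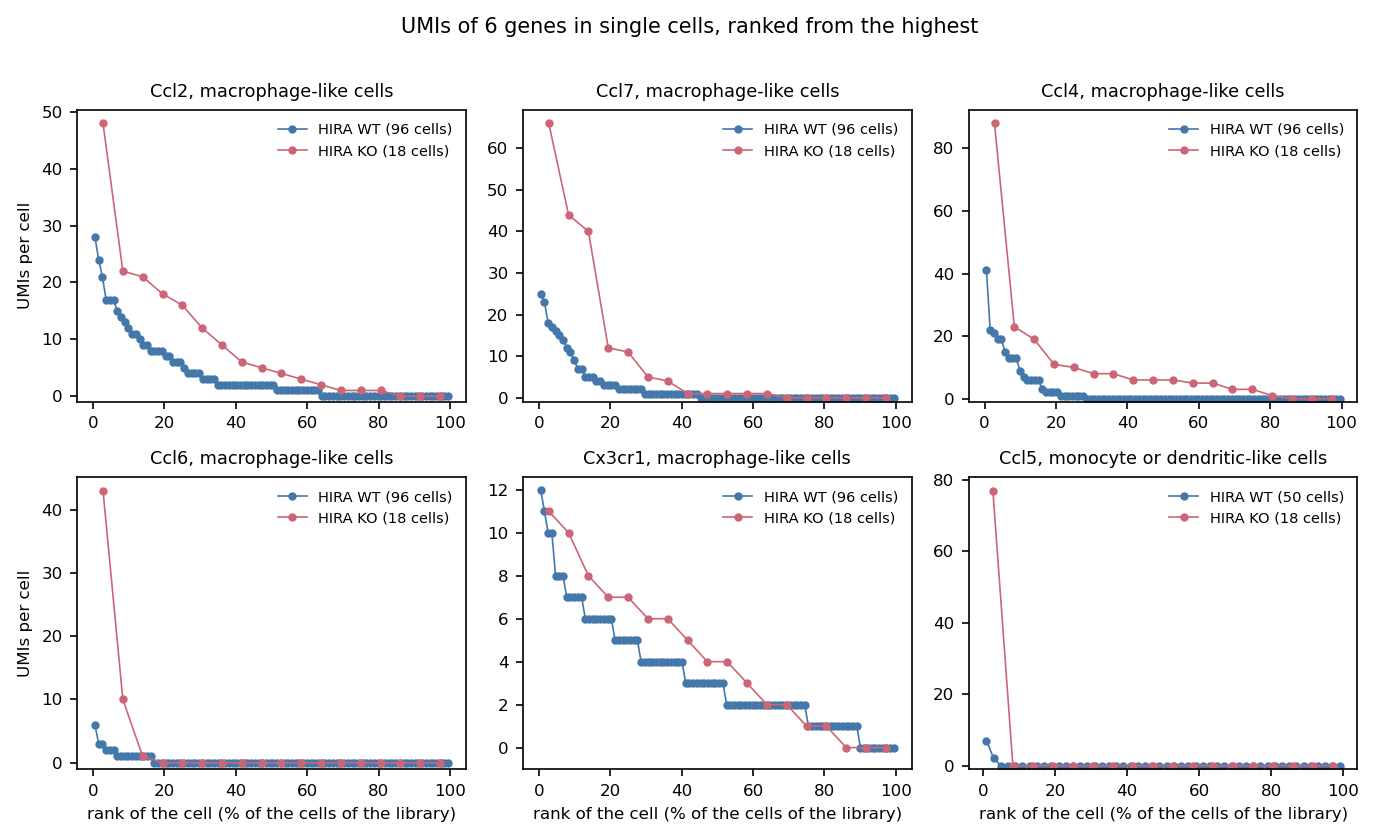
UMIs per cell of 5 genes in macrophage-like cells and of *Ccl5* in monocyte or dendritic-like cells, with each point a cell, ranked from the highest and placed by its percent rank within HIRA WT or HIRA KO. *Ccl6* and *Ccl5* rest on the first points of HIRA KO (43 and 77 UMIs), *Ccl4* is raised along most of the curve, and the curves of *Cx3cr1* run close to each other.

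Other genes of the same programmes were compared in the same cells, from lists set with the design and with earlier results of these data known. Their counts past 2-fold stand against 14.9% of all genes in macrophage-like and 11.2% in monocyte or dendritic-like cells. Of 12 cytokine genes often induced with chemokines, 2 had enough UMIs in macrophage-like cells: *Il1b*, the inflammatory cytokine, with a log2 ratio of 2.07 (1.04 to 3.10), and *Nfkbiz*, an inhibitor-like regulator of NF-κB, with 0.77 (-0.22 to 1.69). The list summed to 134 CPM in HIRA WT and 311 CPM in HIRA KO. In monocyte or dendritic-like cells 1 of 3 passed, *Ptgs2*, the inducible cyclooxygenase, at 1.46 (0.21 to 2.77), while *Il1b* was at -0.86 (-2.47 to 0.50). None of the 1, 2, 0 and 0 genes with enough UMIs passed in glial-like, mesenchymal-like, melanoblast-like and keratinocyte-like cells.

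The 15 immediate-early genes, which tissue dissociation can induce, were at nearly the same sum in macrophage-like cells, 4720 CPM (4546 to 4898) and 4858 CPM (4520 to 5215), with *Fos* the most abundant at 1294 and 1357 CPM. Of 13 compared, 1 was past 2-fold higher (*Nr4a1*, 1.42) and 1 lower (*Fosb*, -1.95). In monocyte or dendritic-like cells the sums were 6169 and 7344 CPM, with 4 of 12 genes past the mark upwards, *Ier3* at the top with 1.54, and 1 downwards, *Ier2* with -1.23. Cells with a UMI of a ligand held more of these genes than cells without it for most ligands in both libraries. In macrophage-like cells of HIRA WT the median sum was 6275 CPM with *Ccl3* and 3381 CPM without it, and 6460 and 4052 CPM for *Cxcl2*, and in monocyte or dendritic-like cells of HIRA WT it was 8418 and 5132 CPM for *Ccl3*. In macrophage-like cells of HIRA KO it was 5215 and 3076 CPM for *Ccl3*, 4927 and 3076 CPM for *Cxcl2*, and 4857 and 2556 CPM for *Ccl7*. In monocyte or dendritic-like cells of HIRA KO it was 7515 and 4191 CPM for *Ccl3*. The exceptions in macrophage-like cells included *Ccl7* in HIRA WT, at 4214 and 4242 CPM, and *Ccl24* in HIRA KO, at 4640 and 5543 CPM. Another was *Ccl4* in HIRA KO, at 4191 CPM with and 5215 CPM without it, the latter from 3 cells. The link between these genes and the ligands was not tested. Past the mark upwards and downwards were 1 and 0 of 13 in glial-like, 2 and 0 of 13 in mesenchymal-like, 0 and 0 of 12 in melanoblast-like and 3 and 5 of 12 in keratinocyte-like cells. Of all genes 6.34%, 9.22%, 8.05% and 21.8% were past it either way in these classes.

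Of 27 further genes of the chemokine pathway, 15 could be compared in macrophage-like cells, and 1 was past 2-fold higher and 3 lower. The largest ratio was that of *Rgs1*, which damps G protein signals of chemokine receptors, at 1.18 (0.46 to 1.87). The smallest was that of *Pik3cg*, the kinase subunit downstream of those receptors, at -1.90 (-5.02 to 0.09). *Pf4*, a platelet-type chemokine that its symbol kept out of the 48 genes, was the most abundant of the list, at 9736 CPM in HIRA WT and 5353 CPM in HIRA KO, a log2 ratio of -0.86 (-0.97 to -0.76). *Pf4* and *Ccl24* thus lay lower in HIRA KO in the cells where most other ligands lay higher. In monocyte or dendritic-like cells 0 of 9 passed, with *Cd74*, the invariant chain and receptor of MIF, most abundant at 1369 and 1596 CPM. Upwards and downwards, 0 and 2 of 13 passed in glial-like, 1 and 1 of 13 in mesenchymal-like, 2 and 1 of 11 in melanoblast-like and 1 and 2 of 7 in keratinocyte-like cells. The shares of all genes there were again 6.34%, 9.22%, 8.05% and 21.8%.

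Outside the leukocytes, *Cxcl12*, the ligand of CXCR4 that guides migrating precursor and blood stem cells, was led by glial-like cells, which held 68.6% of its 1320 UMIs. Its level there was 396 CPM in HIRA WT (366 to 427) and 218 CPM in HIRA KO (193 to 247), with a UMI in 60.8% and 49.6% of cells at median depths of 3378.5 and 4208 UMIs. In macrophage-like cells, which should lack it, 3.13% and 22.2% of cells had a UMI at the larger depths of 5571.5 and 8125, and after thinning 1.05% and 5.56% against 46.5% and 34.6% in glial-like cells. Between the genotypes the glial-like value differed by -0.86 on the log2 scale (-1.07 to -0.65), short of 2-fold.

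The glial-like clusters differed in *Cxcl12* more than the genotypes did. The clusters led by *Pcdh20* and *Gap43* and by *Cdc25c* and *Fabp7* held 596 and 616 CPM in HIRA WT and 377 and 421 CPM in HIRA KO. The cluster led by *Sostdc1* held 77.4 and 36.6 CPM, and that led by *Pou3f1* 177 and 57.9 CPM. The *Pou3f1* cluster made up 33 of 446 glial-like cells in HIRA WT and 59 of 254 in HIRA KO. The ratio of the whole class thus also covers a shift between clusters. In the cluster led by *Gm29865* and *Grb14* the libraries were alike, at 457 and 460.4 CPM. The ratio was therefore below 0 in 4 of 5 glial-like clusters, from -1.61 to -0.55, and 0.01 (-0.64 to 0.63) in the last. Mesenchymal-like cells, the second large source, had 104 CPM (85.2 to 125) and 127 CPM (109.7 to 147), or 0.30 as log2 ratio (-0.05 to 0.65).

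Of 5 members compared in glial-like cells 1 was past 2-fold, against 6.34% of 8590 genes. It was *Cxcl2*, at 1.95 (0.54 to 3.58), with 6 UMIs in HIRA WT and 17 in HIRA KO, 9 of them in 1 cell. *Cxcl16*, a membrane-bound chemokine that binds CXCR6, had its most UMIs in glial-like cells, but only 10 and 3, in 2.24% and 1.18% of cells, against 1.04% and 5.56% of macrophage-like cells. The 5.56% is 1 of 18 cells. After thinning the shares were 1.47% and 0.813% against 0 and 5.56%.

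*Cxcl14*, a chemokine made by epithelia and skin stroma, had 2 sources. Keratinocyte-like cells held 699 CPM in HIRA WT (531 to 903) and 425 CPM in HIRA KO (379.7 to 474), with a UMI in 66.7% of 12 and 38.3% of 81 cells. Mesenchymal-like cells held 436 CPM (397 to 477) and 195 CPM (173 to 219), with a UMI in 65.9% and 41.5% of cells. Macrophage-like cells, which should lack it, had a UMI in 1.04% and 11.1% of cells at median depths of 5571.5 and 8125 UMIs, against 7538 and 9113 in keratinocyte-like and 4414 and 5330 in mesenchymal-like cells. Both sources were lower in HIRA KO, with log2 ratios of -0.72 (-1.13 to -0.29) and -1.16 (-1.37 to -0.94). In keratinocyte-like cells 21 of the 58 UMIs of HIRA WT were in 1 of 12 cells, and the ratio was -0.23 without the top cells and -0.25 after thinning. In mesenchymal-like cells it was -0.55 with each library clustered alone. In keratinocyte-like cells it was the only member compared and did not pass 2-fold, against 21.8% of 4251 genes.

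The mesenchymal-like cells of the libraries were of different kinds, which bears on this value. The cluster led by *Crabp1* and *Twist2*, high in *Cxcl14*, made up 171 of 217 cells in HIRA WT but 98 of 253 in HIRA KO. Within it *Cxcl14* was at 508 and 409 CPM, a log2 ratio of -0.31 (-0.55 to -0.09). Within the cluster led by *Mfap4* and *Aspn*, with 22 and 121 cells, it was at 213 and 64.4 CPM, a ratio of -1.72 (-2.54 to -0.86). Within the cluster led by *Mfap5*, with 24 and 34 cells, it had 1 and 6 UMIs, at 9.70 and 23.6 CPM and a ratio of 1.28 (-1.76 to 6.81). The ratio of the whole class thus also covers a large shift between clusters.

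In melanoblast-like cells *Cxcl14* went the other way, with 6.70 CPM in HIRA WT (3.90 to 10.7) and 37.6 CPM in HIRA KO (25.7 to 53.1), a log2 ratio of 2.49 (1.60 to 3.43). These cells too were of different kinds: the cluster led by *Mt2* and *Rapgef4* held 215 of 536 cells in HIRA WT and 14 of 139 in HIRA KO. Within the cluster led by *Pmel* the ratio was 1.58 (0.25 to 3.03), from 8 and 15 UMIs. Within that led by *Pbk* it was 4.70 (2.62 to 7.86), from 2 and 17 UMIs. The whole class had 17 and 32 UMIs, and no ratio was taken within the cluster led by *Mt2*. A UMI was found in 2.24% and 17.3% of cells, and in 1.14% and 7.91% after thinning. The keratinocyte markers summed to 198 and 653 CPM in these cells, led by *Cdh1* and *Krt10*, with *Trp63* at 0 in both and *Epcam* at 0 in HIRA KO, and the mesenchymal markers to 110.3 and 459 CPM, led by *Col1a2*, with none at 0. In glial-like cells of HIRA KO the keratinocyte markers were at 639 CPM, close to the 653 CPM of melanoblast-like cells, while *Cxcl14* was at 8.37 CPM there. In other classes of HIRA KO it was higher, at 31.7 CPM from 5 UMIs in macrophage-like and 72.6 CPM from 9 UMIs in monocyte or dendritic-like cells, against 1.69 and 39.6 CPM in HIRA WT. Per 100 mesenchymal marker UMIs, melanoblast-like cells had 6.07 *Cxcl14* UMIs in HIRA WT and 8.21 in HIRA KO, and mesenchymal-like cells had 3.56 and 1.29. Per 100 keratinocyte marker UMIs, melanoblast-like cells had 3.39 and 5.77, and keratinocyte-like cells had 2.73 and 0.956. The part of RNA from other cells in the melanoblast-like value was not tested. In these cells 3 of 4 members were past 2-fold, against 8.05% of 8141 genes, all higher in HIRA KO, the others being *Cxcl12* at 1.46 (0.20 to 2.71) and *Ccl27a* at 1.28 (0.47 to 2.07). The value of *Cxcl12*, with 6 of its 12 UMIs of HIRA KO in 1 cell, fell short of 2-fold at 0.69 after thinning, 0.88 without doublets and 0.84 without the top cells, and that of *Ccl27a* at 0.92 after thinning.

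In mesenchymal-like cells 4 of 8 members were past 2-fold, against 9.22% of 8114 genes, 2 in each direction. *Cxcl1*, a neutrophil attractant like *Cxcl2*, was higher in HIRA KO, at 23.3 CPM in HIRA WT (15.1 to 34.4) and 56.6 CPM in HIRA KO (45.1 to 70.01), a log2 ratio of 1.28 (0.62 to 1.98). It was found in 4.61% and 10.7% of cells, against 3.13% and 11.1% of macrophage-like cells, and after thinning in 2.88% and 6.05% against 2.11% and 5.56%. The 84 UMIs of HIRA KO lay in 27 cells with up to 12 in a cell. By cluster, *Cxcl1* was at 25.02 and 30.3 CPM in that led by *Crabp1*, which held most HIRA WT cells, a ratio of 0.28 (-0.71 to 1.24). It was at 11.2 and 64.4 CPM in that led by *Mfap4* and at 19.4 and 98.3 CPM in that led by *Mfap5*, from 1 and 2 UMIs in HIRA WT, so the ratio of the class also holds the shift between clusters. The glial-like cluster led by *Sostdc1* had 28.5 and 83.3 CPM, a ratio of 1.55 (0.55 to 2.60). Of the 27 *Cxcl1* UMIs in all glial-like cells of HIRA KO, 12 were in 1 cell. Without the top cells the ratio of the glial-like class went from 0.96 to 0.45. *Ccl7* in mesenchymal-like cells, with 6 and 27 UMIs, had a ratio of 1.70 (0.39 to 3.27), but 16 of the 27 were in 1 cell.

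*Ccl11*, an eosinophil attractant, was lower in mesenchymal-like cells of HIRA KO, at 20.5 and 7.41 CPM and a log2 ratio of -1.47 (-2.66 to -0.37). Of its 22 UMIs in HIRA WT 8 were in 1 cell, and at Leiden resolution 0.5 the ratio was -0.85, short of 2-fold. Its leading class by mean level was adipocyte-like cells, with 3 UMIs in HIRA WT and 7 in HIRA KO, 6 of the 7 in 1 cell. *Cxcl9*, an interferon-induced attractant of T cells, had 18 of its 20 UMIs in mesenchymal-like cells, 3 in HIRA WT and 15 in HIRA KO. No *Cxcl9* UMI was found in macrophage-like cells, 0 of 96 and 0 of 18, where the 95% intervals of the share of cells with a UMI reach 3.77% and 18.5%.

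*Ccl27a*, known as a T cell attractant of the epidermis, and *Ccl25*, the CCR9 ligand of thymus and gut, were spread thinly over the large classes. *Ccl27a* was at 30.9 and 39.2 CPM in adipocyte-like cells, 15.9 and 30.1 CPM in glial-like cells, and 12.6 and 30.6 CPM in melanoblast-like cells. In keratinocyte-like cells, the source the gene is known for, it had 0 UMIs in 12 cells of HIRA WT and 14.5 CPM in HIRA KO. *Ccl25* had 35 and 17 UMIs in melanoblast-like cells and 18 and 24 UMIs in glial-like cells. Shares of *Ccl25* in melanoblast-like cells, 5.97% and 12.2%, stood against 4.17% and 5.56% in macrophage-like cells, and after thinning 3.43% and 7.19% against 1.05% and 0. The 5.56% is 1 of 18 cells. *Ccl27a* was found in 25.6% and 37.5% of adipocyte-like cells at median depths of 9841 and 11494.5 UMIs, against 2.08% and 5.56% of macrophage-like cells at 5571.5 and 8125, but after thinning only in 4.65% and 12.5% against 1.05% and 0.

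*Ccl21a*, which leads dendritic cells and T cells through CCR7, came from a few endothelial-like cells. A single cell of 21 in HIRA WT held 21 UMIs, and 3 cells of 8 in HIRA KO held 306, with at least 43 in each. These same cells, and none of the other 20 and 5 endothelial-like cells, had UMIs of *Prox1*, *Lyve1* and *Mmrn1*, genes of lymphatic endothelium, which were chosen after the values had been seen. All 3 cells of HIRA KO also had *Flt4* and *Reln*, while *Pdpn* was at 0 in all. The 3 largest classes had at most 6.70 CPM of *Ccl21a*, reached in the glial-like cells of HIRA KO. With 21 and 8 cells, no genotype ratio was read.

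Receptor UMIs were far fewer. Macrophage-like cells held 64.6% of those of HIRA WT and 40.5% of those of HIRA KO, and monocyte or dendritic-like cells 19.5% and 29.5%. The receptor sum of macrophage-like cells was 686 CPM in HIRA WT and 679 CPM in HIRA KO, a log2 ratio of -0.02 (-0.34 to 0.30), where the ligand sum had 1.19 (1.08 to 1.30). In monocyte or dendritic-like cells it was 537 and 629 CPM, a ratio of 0.23 (-0.20 to 0.65), where the ligand sum had 1.15 (0.96 to 1.33). The ligand sum ratios were 0.94 and 0.61 with cells weighted alike and 1.00 and 0.89 after thinning, so that neither was past 2-fold then.

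*Cx3cr1*, the fractalkine receptor of tissue macrophages and patrolling monocytes, was led by macrophage-like cells. It was at 549 CPM in HIRA WT (491 to 612) and 488 CPM in HIRA KO (385 to 610.4) in macrophage-like cells, with a UMI in 89.6% and 83.3% of cells, and in 64.2% and 66.7% after thinning. Melanoblast-like cells had 1.49% and 0.72% at median depths of 4335 and 5654 UMIs. The log2 ratio was -0.17 (-0.55 to 0.19). Its ligand gene *Cx3cl1* had 4 UMIs in all kept cells.

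*Ccr2*, the receptor of inflammatory monocytes, was led by monocyte or dendritic-like cells, with 255 CPM in HIRA WT (194 to 330.1) and 274 CPM in HIRA KO (190 to 383). A UMI was found in 52% and 77.8% of cells, and in 43.9% and 50% after thinning. Macrophage-like cells had 22.0 and 44.4 CPM, from 13 and 7 UMIs, so the 2 classes were set apart by *Cx3cr1* and *Ccr2* in both libraries although neither gene was used for the clustering. Within the monocyte or dendritic-like class, *Cx3cr1* and *Ccr2* occurred together in 8 of 10 *Cx3cr1* cells of HIRA WT and in 7 of 7 of HIRA KO.

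*Ccr1*, a receptor for several inflammatory ligands, was at 79.3 and 153 CPM in monocyte or dendritic-like cells and 83.0 and 114 CPM in macrophage-like cells, with intervals that overlapped between the classes in each library. In HIRA WT all 10 monocyte or dendritic-like cells with *Ccr1* had *Ccr2*, and in HIRA KO 10 of 11. *Cxcr4*, the receptor of *Cxcl12*, was at 39.6 and 40.3 CPM in monocyte or dendritic-like cells, in 16% and 16.7% of cells, against 1.31% of melanoblast-like cells in HIRA WT and 0 of 139 in HIRA KO, where the 95% interval of the share of cells with a UMI reaches 2.62%. *Ackr3*, the atypical *Cxcl12* receptor that takes the ligand up, had 6 and 6 UMIs in mesenchymal-like cells and 6 and 3 in glial-like cells. Melanoblast-like cells had 7 *Cxcr4* UMIs in HIRA WT, each in a cell of its own, at 2.76 CPM (1.11 to 5.68).

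Set side by side as 33 known pairs of ligand and receptor, both genes had 20 UMIs or more in 11 pairs, only the ligand in 10, only the receptor in 1 and neither in 11. Over both libraries the same class led for both genes in 4 of the 11, among them *Ccl6* and *Ccl9* with *Ccr1* in monocyte or dendritic-like cells. With each library taken alone *Ccr1* was led by macrophage-like cells in HIRA WT and by monocyte or dendritic-like cells in HIRA KO, as was *Ccl3*. For *Ccl2*, *Ccl7* and *Ccl12* with *Ccr2*, macrophage-like cells led for the ligand and monocyte or dendritic-like cells for the receptor. *Cxcl12* was led by glial-like cells, and its receptors *Cxcr4* and *Ackr3* by monocyte or dendritic-like and mesenchymal-like cells. Ligands without a receptor at that level included *Ccl21a* (*Ccr7*, 1 UMI), *Ccl24* and *Ccl11* (*Ccr3*, 1 UMI), *Ccl25* (*Ccr9*, 6 UMIs) and *Ccl27a* (*Ccr10*, 5 UMIs). The sort was for tdTomato+ cells, so a partner in other cells of the skin could be missed.

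The 22 remaining genes, 8 ligands and 14 receptors, had 1 to 19 UMIs in the kept cells. The ligands were *Ccl17* (12 UMIs), *Ccl1* (9), *Xcl1* (7), *Cx3cl1* (4), *Cxcl17* (3), *Ccl20* (2), *Cxcl5* (2) and *Ccl8* (1). The receptors were *Cxcr2* (19), *Ackr4* (17), *Cxcr3* (13), *Ccr8* (12), *Ackr1* (7), *Ccr9* (6), *Ccr10* (5), *Xcr1* (4), *Ccr4* (3), *Cxcr6* (3), and *Ccr3*, *Ccr6*, *Ccr7* and *Ackr2* (1 each). Mast cell-like cells of HIRA WT held 11 of 12 *Ccl17* UMIs, all 9 of *Ccl1*, and 10 of 12 of *Ccr8*, the receptor of *Ccl1*. *Ccl1* and its receptor gene thus lay in the same class, and HIRA KO had 3 such cells, too few to compare. *Cxcr2*, the neutrophil receptor of *Cxcl1* and *Cxcl2*, had 3 UMIs in the 7 granulocyte-like cells of each library. *Cxcr3* had 10 UMIs in macrophage-like cells of HIRA WT, and *Ackr4*, which removes *Ccl21a* among others, had 13 in mesenchymal-like cells of HIRA KO.

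Many of these genes lie side by side in the genome (GENCODE M21, GRCm38). On chromosome 11, *Ccl2* (ENSMUSG00000035385, 82035571 to 82037453), *Ccl7* (ENSMUSG00000035373, 82045712 to 82047525), *Ccl11*, *Ccl12*, *Ccl8* and *Ccl1* span 270.1 kb and gave 15.9% of the members' UMIs. Further along, *Ccl5*, *Ccl9*, *Ccl6*, *Ccl3* (83647844 to 83649355) and *Ccl4* (83662584 to 83664683) span 139 kb and gave 24.2%. In the first block *Ccl2*, *Ccl7* and *Ccl12* were led by macrophage-like cells, with *Ccl11* between them high in mesenchymal-like and adipocyte-like cells. In the second, *Ccl4*, *Ccl5*, *Ccl6* and *Ccl9* were led by monocyte or dendritic-like cells and *Ccl3* by macrophage-like cells. On chromosome 5, the neighbours *Cxcl1* (ENSMUSG00000029380, 90891241 to 90893115) and *Cxcl2* (ENSMUSG00000058427, 90903871 to 90905938) were led by mesenchymal-like and macrophage-like cells. Of the 3 rows named *Ccl27a*, ENSMUSG00000073888 held 202 UMIs, ENSMUSG00000095247 held 2 and the last none, and the second row of *Ccl21a* held 0. Rows of the same symbol were summed. Reads shared by gene copies may have been dropped before counting, so low counts and counts of 0 of such genes may be too low.

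Promoter windows of 300 bases around the gene start were read from RefSeq (GRCm38.p6). They were found for 18 of the 26 genes, and the ligands without one were *Ccl2*, *Ccl4*, *Ccl5*, *Ccl7*, *Ccl11*, *Ccl24* and *Cxcl16*. A core of the κB consensus, GGNNTTTCC on either strand, occurred in 5 of 13 ligand windows (*Ccl9*, *Cxcl1*, *Cxcl2*, *Cxcl9* and *Cxcl10*) and in 0 of 5 receptor windows, against 5.82% of 32851 promoters. An AP-1 core, TGANTCA, occurred in *Ccl9*, *Ccl27a*, *Cxcl9* and *Cxcl10*, against 7.81%. The matches of these motifs do not overlap in the windows shown. *Cxcl1* and *Cxcl2* are printed as neighbours with matches. Past 2-fold in HIRA KO, *Cxcl1* was higher in mesenchymal-like cells and *Cxcl2* in macrophage-like and glial-like cells. In glial-like cells *Cxcl1* was higher too, but short of 2-fold. *Ccl9* is printed as the ligand past 2-fold in both leukocyte classes with both motifs, and *Ccl12* as a ligand past 2-fold with neither. Capitals mark the matches, which are letters in these windows and not shown binding sites.
Cxcl1 (chr5:90890995-90891294, plus strand): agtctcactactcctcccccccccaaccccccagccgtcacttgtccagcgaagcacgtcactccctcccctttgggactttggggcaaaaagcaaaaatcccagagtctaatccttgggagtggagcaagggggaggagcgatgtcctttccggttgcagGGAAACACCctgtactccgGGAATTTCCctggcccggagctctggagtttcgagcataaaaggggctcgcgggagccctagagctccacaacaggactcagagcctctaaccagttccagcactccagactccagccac
Cxcl2 (chr5:90903649-90903948, plus strand): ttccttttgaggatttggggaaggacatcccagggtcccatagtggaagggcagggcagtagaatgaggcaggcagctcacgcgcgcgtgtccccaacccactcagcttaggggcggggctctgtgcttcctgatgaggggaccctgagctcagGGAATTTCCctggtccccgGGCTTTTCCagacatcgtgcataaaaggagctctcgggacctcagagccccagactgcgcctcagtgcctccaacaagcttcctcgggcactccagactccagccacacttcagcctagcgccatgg
Ccl9 (chr11:83578587-83578886, minus strand): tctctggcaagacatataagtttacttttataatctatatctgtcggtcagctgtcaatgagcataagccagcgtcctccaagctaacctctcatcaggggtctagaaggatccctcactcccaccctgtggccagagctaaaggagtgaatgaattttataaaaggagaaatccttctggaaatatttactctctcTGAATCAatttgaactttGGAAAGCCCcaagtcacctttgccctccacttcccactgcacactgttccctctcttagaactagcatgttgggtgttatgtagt
Ccl12 (chr11:82101595-82101894, plus strand): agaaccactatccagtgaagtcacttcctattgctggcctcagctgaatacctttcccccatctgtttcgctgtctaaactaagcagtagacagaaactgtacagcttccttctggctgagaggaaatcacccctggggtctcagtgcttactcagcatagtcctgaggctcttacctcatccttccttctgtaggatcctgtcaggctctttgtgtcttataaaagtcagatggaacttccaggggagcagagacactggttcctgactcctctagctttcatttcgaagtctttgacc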

How the data were processed

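Skin cells of 1 HIRA WT and 1 HIRA KO library were measured by droplet single-cell RNA sequencing. The UMI counts are those the authors deposited, made with Cell Ranger 2.2.0 on mm10 according to their processing notes. Genes were chosen by symbol, and genes and lists were chosen with earlier results of these data known. Cells with at least 100 genes, at most 40000 UMIs and at most 10% mitochondrial UMIs were kept.

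Both libraries were clustered together in Python 3.11.15 with scanpy 1.11.5 (2000 variable genes, 1972 used with members, sex-linked genes and *Hira* held out, 30 principal components, 15 neighbours, Leiden resolution 1, seed 0) and named from marker lists. Levels are UMIs per 1000000 UMIs of the class (CPM) with exact Poisson 95% intervals, and shares have Clopper-Pearson intervals (scipy 1.17.1), also after thinning cells to 2000 UMIs. Where a share of 0 is given with a limit, the limit is the upper end of that interval. Genes with at least 20 UMIs were named. Ratios were taken in classes with at least 10 cells per library and 20 UMIs of the gene, with conditional binomial intervals. These were checked only on simulated Poisson counts, the model that the intervals assume. Genes whose UMIs gather in few cells were not simulated, so the check does not cover them. No test between genotypes was run. Lists of other chemokine pathway genes, immediate-early genes and induced cytokines were compared likewise. Alternatives changed filters, clustering, scaling, depth, doublets, barcodes and thresholds.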

Additional observations from a re-analysis of the deposited data

Results flagged for a closer look

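*Cxcl14* moved in opposite directions in different classes. Its log2 ratio of HIRA KO to HIRA WT was 2.49 (1.60 to 3.43) in melanoblast-like cells, where it was at 6.70 and 37.6 CPM, and -1.16 (-1.37 to -0.94) in mesenchymal-like cells, where it was at 436 and 195 CPM. These ratios drew attention because both passed 2-fold with opposite signs, each from 1 library per genotype, and the difference between the classes was not tested. The mesenchymal-like cluster high in *Cxcl14* made up 171 of 217 cells in HIRA WT and 98 of 253 in HIRA KO, and within it the ratio was -0.31 (-0.55 to -0.09). With each library clustered alone the mesenchymal-like ratio was -0.55, short of 2-fold. In melanoblast-like cells the keratinocyte markers rose too, from 198 to 653 CPM, and the mesenchymal markers from 110.3 to 459 CPM, and where the *Cxcl14* UMIs came from was not tested.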

How the results depend on the processing

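Of 39 log2 ratios, 19 were past 2-fold, and none of these 19 changed sign where a value was given. Of the other 20, 6 changed sign under an alternative, and for 2 of them the reported interval excludes 0: *Ccl4* in monocyte or dendritic-like cells went from 0.61 to -0.55 with cells weighted alike and to -0.07 without cells rich in mesenchymal markers, and *Ccl3* in macrophage-like cells went from 0.62 to -0.18 without its top cells. All 19 kept that side with at least 500 genes per cell, at Leiden resolution 2, without barcodes of both libraries (there were 0) and with members left in the clustering genes. With at least 500 genes, however, the melanoblast-like class of HIRA KO went from 139 to 54 cells. An unnamed cluster then held 4 cells of HIRA WT and 94 of HIRA KO. Scaling without haemoglobin, mitochondrial and ribosomal protein genes kept 18, leaving out Scrublet doublets (9 and 6 cells) kept 17, weighting cells alike kept 16, and thinning to 2000 UMIs kept 14. Lost with cells weighted alike were *Ccl3* (0.94), *Ccl6* (0.93) and *Ccl9* (0.72) in monocyte or dendritic-like cells. Lost after thinning were *Ccl6* (0.67) and *Ccl9* (0.58) there, *Cxcl12* (0.69) and *Ccl27a* (0.92) in melanoblast-like cells and *Ccr2* (0.81) in macrophage-like cells, while *Cxcl1* in glial-like (1.32), *Ccl24* in macrophage-like (-1.09) and *Ccl2* in mesenchymal-like cells (-1.84) were newly past 2-fold. Also newly past it were *Ccl27a* in glial-like cells (1.16) and *Ccr1* in monocyte or dendritic-like cells (1.03) with cells weighted alike, *Ccl25* in glial-like cells without doublets (1.04) and *Ccr1* in monocyte or dendritic-like cells with members in the clustering genes (1.12). Leiden resolution 0.5 also kept 14, since the monocyte or dendritic-like cells then joined the granulocyte-named class and gave no value for 4, and *Ccl11* in mesenchymal-like cells went to -0.85. With each library clustered alone 7 were kept. No value was given for 7 ratios in macrophage-like cells, a class that HIRA KO then lacked, and for 4 in monocyte or dendritic-like cells, a class that both then lacked, and *Cxcl14* in mesenchymal-like cells went to -0.55.

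The leading class of the 26 genes was as reported for 17 at Leiden resolution 0.5, for 10 with each library clustered alone and for 18 after thinning, where *Ccl27a* moved to melanoblast-like and *Ccl11* to mesenchymal-like cells and 6 had no class. At a minimum of 10 UMIs, 3 of 9 members passed 2-fold in glial-like cells (10.4% of all genes), 1 of 2 in keratinocyte-like (26.1%), 8 of 15 in macrophage-like (21.7%), 6 of 14 in monocyte or dendritic-like (19.4%), 4 of 6 in melanoblast-like (11.8%) and 6 of 14 in mesenchymal-like cells (13.1%). At 50 UMIs it was 0 of 2 in glial-like (2.69%), 0 of 1 in keratinocyte-like (13.5%), 6 of 11 in macrophage-like (8.71%), 4 of 6 in monocyte or dendritic-like (5.88%), 1 of 2 in melanoblast-like (3.39%) and 2 of 3 in mesenchymal-like cells (4.91%). At 3-fold it was 1 of 5 in glial-like (1.42%), 0 of 1 in keratinocyte-like (5.95%), 4 of 12 in macrophage-like (4.69%), 2 of 9 in monocyte or dendritic-like (3.14%), 1 of 4 in melanoblast-like (2.58%) and 1 of 8 in mesenchymal-like cells (2.74%).

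The log2 ratio of the ligand sum, 1.19 in macrophage-like and 1.15 in monocyte or dendritic-like cells, became 0.94 and 0.61 with cells weighted alike and 1.00 and 0.89 after thinning. In keratinocyte-like cells it went from -0.53 to -0.0463 after thinning. With each library clustered alone it was 2.55 in melanoblast-like and -0.27 in mesenchymal-like cells. The cause was not tested.

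Both further alternatives were chosen after seeing the data. Leaving out leukocyte-named cells with at least 0.1% mesenchymal marker UMIs could change only the 7 ratios past 2-fold in macrophage-like and the 4 in monocyte or dendritic-like cells. All of these stayed past 2-fold. The filter took out 0 of 96 and 2 of 18 macrophage-like and 3 of 50 and 5 of 18 monocyte or dendritic-like cells. It added *Ccr1* in monocyte or dendritic-like cells (1.25) and gave a ligand sum ratio of 1.44 in macrophage-like cells. Leaving out each gene's top cell in each library kept 13, with counts of 2 of 5 in glial-like (7.26% of all genes), 2 of 9 in monocyte or dendritic-like (14.2%), 2 of 4 in melanoblast-like (9.86%), 4 of 8 in mesenchymal-like (10.7%), 0 of 1 in keratinocyte-like (22.5%) and 5 of 12 in macrophage-like cells (22.2%). The last 5 are *Ccl4*, *Ccl7*, *Ccl12* and *Cxcl2*, higher in HIRA KO, and *Ccl24*, newly past 2-fold downwards at -1.02. In glial-like cells *Ccl27a* was newly past 2-fold at 1.01. With 18 macrophage-like cells in HIRA KO, depth limits the ratios of genes with few UMIs there, such as *Ccr2* with 7, and the single library per genotype and the difference in sex limit every ratio.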
